A study of Homo sapiens with 26 samples.

Results

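The response of colon carcinoma cells to the BET inhibitor JQ1 was compared between cells lacking both Mediator kinases and their parental line. For each gene, the log2 change with JQ1 in the double-knockout subline DKO-C1 was set against the log2 change with JQ1 in control HCT116 cells, and the difference of these log2 changes was tested. It was positive where the response in DKO-C1 lay above that in control cells and negative where it lay below. The comparison used 11 of the 26 libraries of the series: 2 of DKO-C1 with JQ1, 3 of DKO-C1 without, 3 of control HCT116 with JQ1 and 3 of control HCT116 without. All 17198 genes with enough counts were tested, and the spike-in transcripts were left out.

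HCT116 is an epithelial line from a human colon carcinoma, and DKO-C1 is an HCT116 subline in which CDK8 and CDK19 were both edited by CRISPR. Control HCT116 cells carry neither knockout. All 4 groups were adherent monolayers in the same medium with serum. The labels name JQ1 as the only agent, and the sources used here state neither its dose nor its duration, nor a vehicle for the other cells, nor the edited positions. DKO-C1 is 1 subline, and its second companion DKO-C2 has no JQ1 library here, so the genotype and the history of this subline cannot be told apart. The labels do not say whether replicates were separate cultures, so p values measure only the spread between these libraries, which may be technical.

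CDK8 and its paralogue CDK19 are alternative kinases of the Mediator kinase module, in which they pair with cyclin C, MED12 and MED13. The module docks on Mediator, the complex that carries signals from enhancer-bound factors to RNA polymerase II, and can hold transcription back or help it. JQ1 fills the acetyl-lysine pockets of the BET proteins and releases these proteins from chromatin, which in many cancer cells lowers MYC and raises HEXIM1, an inhibitor of the elongation kinase P-TEFb.

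Gene counts per library ran from 18291536 to 18958445. Replicate libraries had a Pearson correlation of log2 CPM (gene counts scaled to a common library total) between 0.9927 and 0.9943 across genes. Epithelial markers were present in all libraries, with a summed level of 7070 to 7200 CPM in DKO-C1 with JQ1 and 6070 to 6630 CPM without, against 4820 to 5300 CPM in control cells with JQ1 and 4100 to 4660 CPM without. That sum rests mainly on KRT8 and KRT18. At like treatment KRT8, KRT18, CDH1 and EPCAM averaged more in DKO-C1 than in control cells, and KRT19, CLDN7, ELF3 and CDX2 averaged less. KRT19 averaged 470 CPM in DKO-C1 with JQ1 and 411 CPM without, against 644 and 643 CPM in control cells. The summed fibroblast, immune, endothelial and erythroid markers never passed 1.24 CPM in any of the 11 libraries, and LUM, a fibroblast proteoglycan, had no count. ERCC spike-in transcripts took 2.47% to 3.02% of counts in DKO-C1 with JQ1 and 2.29% to 2.4% without, against 1.31% to 1.55% in control cells with JQ1 and 1.04% to 1.24% without. The sources used here do not say whether all libraries were counted with 1 annotation and 1 setting. Genes that share exons with others can move with that: RNF43, which shares 53.7% of its 50-base words, averaged 13.16 CPM in DKO-C1 with JQ1 and 19.36 CPM without, against 73.18 CPM in control cells with JQ1 and 82.12 CPM without. For levels of DKO-C1 against control cells, the part of counting in such gaps was not tested. Values are relative to the gene counts of a library, so in these bulk samples fewer cells of a kind and less RNA of a gene per cell cannot be told apart.

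The edited genes were still read in the double knockout. CDK8 stood at 45.5 and 43.2 CPM in DKO-C1 with JQ1 and at 39.9, 35.4 and 38.1 CPM without, against 51, 53.5 and 54.1 CPM in control cells with JQ1 and 50.1, 50.4 and 52.2 CPM without. CDK19 stood at 38.6 and 36.7 CPM in DKO-C1 with JQ1 and at 34.8, 33.1 and 31.8 CPM without, against 34, 36.8 and 37.9 CPM in control cells with JQ1 and 29.9, 24.4 and 27.4 CPM without. All DKO-C1 libraries lay below all control libraries for CDK8, while for CDK19 they did not. Counts over a whole gene do not show whether an edited transcript can be read through to protein, so these levels check the labels only in part. Neither gene's JQ1 response passed the test of a difference between the genotypes (CDK8 0.18 ± 0.08, CDK19 -0.23 ± 0.11, log2 ± SE, with edgeR adjusted p of 0.22 and 0.208).

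JQ1 moved about as many genes in one genotype as in the other. At a Benjamini-Hochberg adjusted p under 0.05 in edgeR's quasi-likelihood test, 8642 genes (50.3% of those tested) responded in DKO-C1, of which 4279 rose (24.9%) and 4363 fell (25.4%). In control cells 9637 genes (56%) responded, of which 4637 rose (27% of those tested) and 5000 fell (29.1%). The 2 responses share no library, and 6803 genes passed in both with the same sign, which is 78.7% of the calls in DKO-C1 and 70.6% of those in control cells. Across all 17198 genes, which are not independent of each other, the responses had a Pearson correlation of 0.739 and a Spearman correlation of 0.743. Among the 6951 genes called in both genotypes the median size of the log2 response was 0.531 in DKO-C1 and 0.531 in control cells, and 3459 of them had the larger response in DKO-C1. With libraries scaled by ERCC counts the genotypes were less alike. Then 5864 genes responded in DKO-C1 (923 rose, 4941 fell), against 8467 in control cells (801 rose, 7666 fell).

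A difference between the responses was called for 1478 genes, 8.59% of those tested. The response was higher in DKO-C1 than in control cells for 670 of them (3.9%) and lower for 808 (4.7%). Only 166 genes (0.965%) were called with a difference of at least 2-fold. The median difference over all tested genes was 0.0261. In a fit of the 11 libraries alone 457 genes were called higher and 1241 lower, with a median of -0.0325, and with a replicate block added 349 were called higher and 1013 lower. At an unadjusted p under 0.05 the count was 3550 genes (20.6%). With only 2 JQ1 libraries of DKO-C1, the count rested partly on each of them: it was 921 without replicate 1, with 337 higher and 584 lower, and 1035 without replicate a, with 429 higher and 606 lower. When libraries were scaled by ERCC counts in place of gene counts, 142 genes were called, 83 higher and 59 lower, and the difference kept its sign in 1478 of the 1478 genes. This scaling moves the difference of most genes by a like, small amount, the median being 0.124 in place of 0.0261. Signs kept with ERCC scaling, here and below, therefore add no support. The SE was larger with it, for example 0.228 against 0.0646 for ACTN1.

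**Figure D1:**
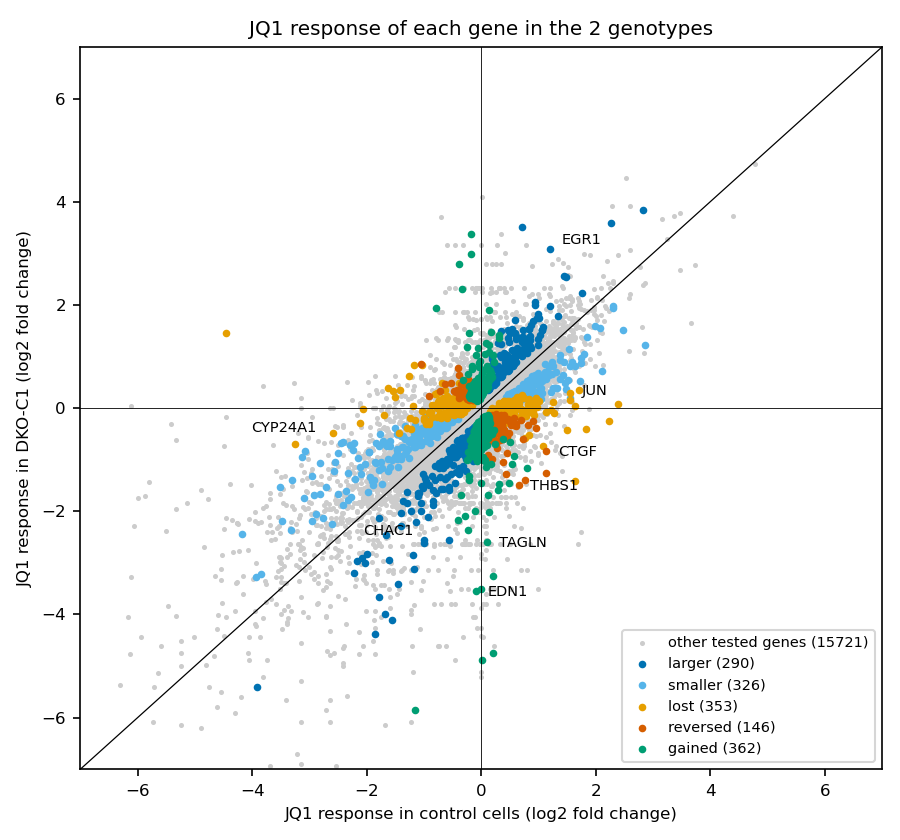
Each point is one of the tested genes, with its JQ1 response in control cells on the x axis and in DKO-C1 on the y axis, both as log2 fold change. Genes on the diagonal responded alike, the 1478 genes with a called difference are coloured by class (the single gene in no class is drawn with the others), and 6 genes lie beyond the axis limits of 7 on the log2 scale.

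The genes with a called difference were sorted by what happened in each genotype. A response was larger in DKO-C1, with the same sign in both, for 290 genes (1.69% of tested genes), and smaller for 326 (1.9%). It was lost, meaning called in control cells and not in DKO-C1, for 353 genes (2.05%), and gained, meaning called in DKO-C1 and not in control cells, for 362 (2.1%). It was reversed, called in both with opposite signs, for 146 genes (0.849%), and 1 gene, KAZN (0.00581%), was called in neither genotype alone. Of the reversed genes, 108 fell in DKO-C1 and rose in control cells, and 38 rose in DKO-C1 and fell in control cells. Most differences were modest, with a median size between 0.437 for larger responses and 0.624 for reversed ones on the log2 scale.

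Rises and falls are relative to the other genes, which matters most for the reversed class. With ERCC scaling the median gene fell by 0.274 on the log2 scale with JQ1 in DKO-C1 and fell by 0.388 in control cells, and 56 of the 146 reversed genes still had opposite signs in the 2 genotypes. Without replicate 1 of DKO-C1 with JQ1, 170 genes had larger, 164 smaller, 280 lost, 103 reversed and 204 gained responses, and without replicate a the smaller class held 182 genes and the gained class 231.

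Genes used to follow BET inhibition set the frame. HEXIM1 (ENSG00000186834, chr17:45148502-45152101, plus strand, hg38) stood at 198 and 207 CPM in DKO-C1 with JQ1 and at 85.6, 90.2 and 89.8 CPM without, against 235, 227 and 227 CPM in control cells with JQ1 and 96.5, 96.4 and 98.5 CPM without. Every JQ1 library lay above every untreated one in both genotypes. The log2 response was 1.20 in DKO-C1 and 1.24 in control cells, a difference of -0.05 ± 0.07 (SE, edgeR adjusted p = 0.788), which with ERCC scaling was 0.0468, also not called.

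MYC (ENSG00000136997, chr8:127735434-127741434, plus strand), the growth-promoting transcription factor that is the best known target of JQ1, behaved differently in the 2 genotypes. It had 118 and 129 CPM in DKO-C1 with JQ1 and 150, 151 and 149 CPM without, against 281, 256 and 287 CPM in control cells with JQ1 and 423, 561 and 514 CPM without. The 4 groups did not overlap, and untreated DKO-C1 already lay below JQ1-treated control cells. MYC fell by 0.28 in DKO-C1 and fell by 0.86 in control cells on the log2 scale, and the difference was 0.58 ± 0.09 (SE, edgeR adjusted p = 3.63e-05). It was 0.487 without replicate 2 of control and 0.686 without replicate 1. With ERCC scaling the difference was 0.683 with an adjusted p of 0.157. The untreated second subline DKO-C2 held 135, 146 and 132 CPM.

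The list of BET proteins and P-TEFb regulators also held SERPINI1, which is neither. Of its 16 genes, 9 rose and 1 fell with JQ1 in DKO-C1, against 24.9% and 25.4% of all tested genes. In control cells 10 rose and 1 fell, against 27% and 29.1% of all tested genes. A difference between the genotypes was called for 3 of the 16. As 8.59% of all tested genes were called, counts this small in lists of this length say little about the list. SERPINI1, a serine protease inhibitor whose gene rose with JQ1 in both genotypes, averaged 14 ± 1.14 CPM in DKO-C1 with JQ1 (SD, n = 2) and 2.39 ± 0.352 CPM without, against 9.75 ± 0.605 CPM in control cells with JQ1 and 3.47 ± 0.591 CPM without (SD, n = 3 each). Its response was larger in DKO-C1 by 1.06 ± 0.21 (edgeR adjusted p = 0.000569), and it was the only member of the list called higher. ELL2, a subunit of the super elongation complex, rose less in DKO-C1 (-0.29), and MEPCE, the capping enzyme of the 7SK RNA, gave -0.34, a call lost without replicate 1 of DKO-C1 with JQ1 (adjusted p = 0.086). Of the MYC and MAX network, 3 of 12 tested genes were called, all higher: MYC, its antagonist MXI1 and the repressor MNT, whose call was lost without replicate a (adjusted p = 0.276). In the Mediator kinase module itself 1 of 7 genes was called, again beside 8.59% of all tested genes, MED12L at 0.68, and that call was lost without any of 4 single libraries (adjusted p = 0.0523 to 0.139).

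The 3 largest differences among the named genes, those of FGF1, EDN1 and TAGLN, fell on genes with a called fall in DKO-C1 and no called response in control cells, where FGF1 and EDN1 had 15 counts or fewer in each library. TAGLN (ENSG00000149591, chr11:117199321-117204782, plus strand), the actin-binding protein transgelin, had 17.3 and 18 CPM in DKO-C1 with JQ1 and 111, 101 and 107 CPM without, against 3.49, 3.7 and 3.12 CPM in control cells with JQ1 and 3.09, 3.18 and 3.32 CPM without. The DKO-C1 libraries lay far above all control libraries, and JQ1 brought them most of the way down, while the control groups overlapped. TAGLN fell by 2.59 on the log2 scale in DKO-C1, its response in control cells was 0.11 and not called, and the difference was -2.69 ± 0.16 (edgeR adjusted p = 5.14e-15). DKO-C2 without JQ1 held 149, 161 and 144 CPM.

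EDN1 (ENSG00000078401, chr6:12290363-12297194, plus strand), which encodes the precursor of the vasoconstrictor endothelin-1, had 1.2 and 0.922 CPM in DKO-C1 with JQ1 and 13.1, 12.5 and 11.7 CPM without, against 0.687, 0.512 and 0.455 CPM in control cells with JQ1 and 0.315, 0.822 and 0.642 CPM without. The treated DKO-C1 libraries came close to the control level, where each library held only 6 to 15 counts. EDN1 fell by 3.54 in DKO-C1, and the difference was -3.44 ± 0.49 (edgeR adjusted p = 2.77e-06). FGF1, a secreted fibroblast growth factor, had 1 and 3 counts in DKO-C1 with JQ1 and 122, 128 and 131 counts without, against 1, 3 and 0 counts in control cells with JQ1 and 2, 4 and 4 counts without. The control libraries were too low to show a response, and the call of the difference was lost without replicate 2 of control with JQ1 (edgeR adjusted p = 0.404). FRMD3 and the spectrin gene SPTBN5 followed the same course at low levels, with 1.66 ± 0.436 and 1.93 ± 0.179 CPM in DKO-C1 with JQ1 (SD, n = 2) and 7.08 ± 0.0806 and 5.31 ± 0.557 CPM without (SD, n = 3). Both stood between 0.802 and 2 CPM in all 6 control libraries. EDN1, FGF1, FRMD3 and SPTBN5 reached the mean of 5 CPM needed for naming only in untreated DKO-C1. Their shared high level there therefore follows from the naming rule and is not a result.

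**Figure D2:**
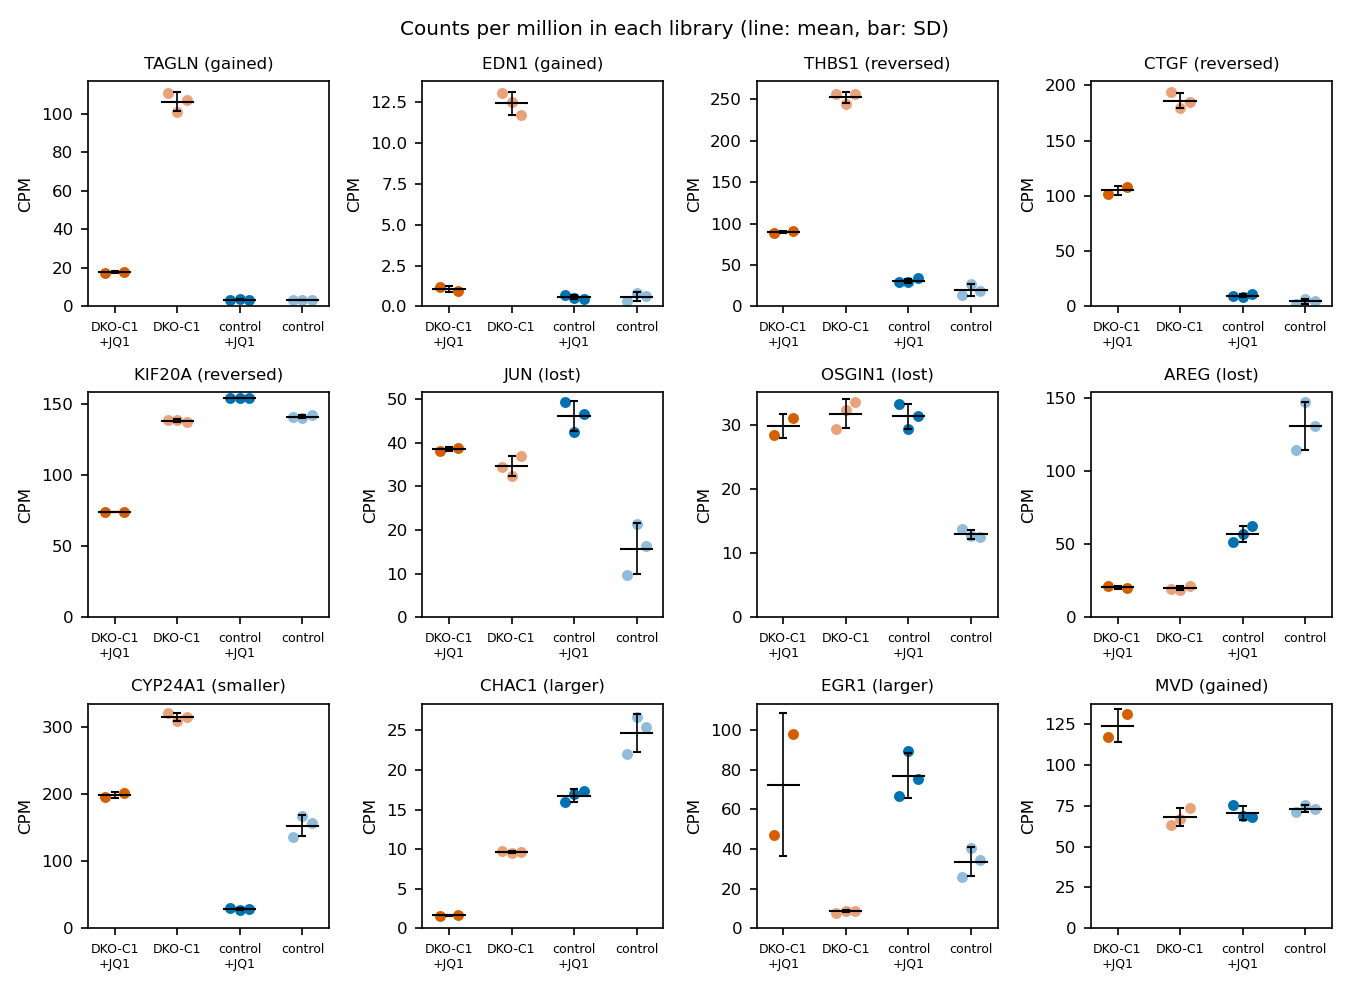
Each panel shows 1 gene in CPM, with 1 point per library, a line at the group mean and a bar of 1 SD. From left to right the groups are DKO-C1 with JQ1, DKO-C1, control with JQ1 and control, and the title gives the class of the response; EGR1 and MVD were added after their values were seen.

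The contractile and actin-binding genes had the lowest median difference of the 25 gene lists. Of 20 tested genes of 21 on the list, 13 were called lower and 0 higher, against 8.59% of all tested genes called. Their median difference was -0.61, beside 0.0261 over all tested genes. In DKO-C1 16 of the 20 fell and 1 rose with JQ1, against 6 that fell and 6 that rose in control cells. Of all tested genes 25.4% fell and 24.9% rose in DKO-C1, and 29.1% fell and 27% rose in control cells. With ERCC scaling 2 of the 20 were called lower and 19 kept their sign.

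MYL9, a regulatory light chain of myosin, had 197 and 206 CPM in DKO-C1 with JQ1 and 395, 391 and 425 CPM without, against 42.8, 37 and 35.1 CPM in control cells with JQ1 and 33.3, 39.9 and 36.2 CPM without. It fell in DKO-C1, where the groups were far apart, and was not called in control cells, where they overlapped (difference -1.07 ± 0.12, edgeR adjusted p = 1.36e-08). ACTN1, an alpha-actinin that crosslinks actin, gave -0.80 ± 0.06 and VCL, the focal adhesion protein vinculin, -0.70 ± 0.07, and neither response was called in control cells. Tropomyosin TPM4 fell by 0.64 in DKO-C1 and rose by 0.12 in control cells. ACTN1, and likewise OSGIN1, LOXL2, TIMP2, AXIN2 and SLC2A1 below, shares sequence or exons with other annotated genes, so their counts are uncertain. FLNA, a filamin, differed from these: it rose in both genotypes, by 0.27 in DKO-C1 and by 0.62 in control cells.

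The promoters of 10 called genes of this list were in RefSeq's table for build GRCh38.p14, and 3 of the 10 (30.0%) held a CArG box, the element read by serum response factor, against 1.01% of the 10859 tested genes with a promoter. They are shown because many contractile genes are known targets of that factor. The search covered both strands of the 250 bases before each start. A match describes letters and does not show that a factor binds. Each is written 5′ to 3′ on the gene's strand with the CArG box in capitals, for TPM4 at chr19:16067288-16067537 (plus strand), CNN2, a calponin, at chr19:1026358-1026607 (plus) and FLNA at chrX:154374635-154374884 (minus). The boxes start 173, 89 and 94 bases before the start of TPM4, CNN2 and FLNA.
TPM4: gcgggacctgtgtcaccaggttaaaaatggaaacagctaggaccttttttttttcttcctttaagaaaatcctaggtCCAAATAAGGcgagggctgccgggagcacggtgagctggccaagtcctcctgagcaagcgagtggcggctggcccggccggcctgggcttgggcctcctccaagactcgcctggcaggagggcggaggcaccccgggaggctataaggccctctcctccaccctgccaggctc
CNN2: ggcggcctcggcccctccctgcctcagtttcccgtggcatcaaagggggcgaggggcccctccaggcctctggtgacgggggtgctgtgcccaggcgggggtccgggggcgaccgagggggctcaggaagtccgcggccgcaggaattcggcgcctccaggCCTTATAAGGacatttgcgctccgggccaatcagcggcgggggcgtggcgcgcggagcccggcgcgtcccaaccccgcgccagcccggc
FLNA: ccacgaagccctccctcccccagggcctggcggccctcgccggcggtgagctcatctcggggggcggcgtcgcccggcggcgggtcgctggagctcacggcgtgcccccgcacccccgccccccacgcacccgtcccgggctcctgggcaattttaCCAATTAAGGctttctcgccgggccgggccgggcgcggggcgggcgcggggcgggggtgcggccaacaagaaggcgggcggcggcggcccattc

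Reversed responses included genes of the extracellular matrix. THBS1 (ENSG00000137801, chr15:39581079-39599466, plus strand), which encodes the matrix glycoprotein thrombospondin-1, had 88.7 and 90.6 CPM in DKO-C1 with JQ1 and 257, 245 and 256 CPM without, against 29.2, 29.7 and 34 CPM in control cells with JQ1 and 13.3, 26.9 and 19 CPM without. JQ1 lowered it in the cells where it was high and raised it in the cells where it was low, with no overlap in either pair of groups. It fell by 1.49 in DKO-C1 and rose by 0.66 in control cells, a difference of -2.15 ± 0.16 (edgeR adjusted p = 1.04e-12). That difference was -2.44 without replicate 2 of control and -1.93 without replicate 1. The 250 bases before its start, at chr15:39580829-39581078 on the plus strand (RefSeq, GRCh38.p14), held GGAATG, the core letters of a TEAD site, starting 46 bases before the start. That motif was present on either strand in 9.35% of the promoters of tested genes, and in 10.0% of those of reversed genes.
THBS1: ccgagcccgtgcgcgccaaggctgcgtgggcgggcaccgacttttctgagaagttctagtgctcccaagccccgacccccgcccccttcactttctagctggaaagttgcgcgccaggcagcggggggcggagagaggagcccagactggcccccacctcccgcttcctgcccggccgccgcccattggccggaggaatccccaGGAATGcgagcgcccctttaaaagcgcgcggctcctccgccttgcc

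CTGF (ENSG00000118523, chr6:131948176-131951373, minus strand), a secreted matricellular protein and a standard target of YAP and TEAD, had 102 and 108 CPM in DKO-C1 with JQ1 and 194, 180 and 185 CPM without, against 9.5, 8.26 and 11.4 CPM in control cells with JQ1 and 1.84, 6.8 and 4.71 CPM without. All DKO-C1 libraries lay above all control libraries, and JQ1 narrowed that gap from both sides. It fell by 0.82 in DKO-C1 and rose by 1.14 in control cells (difference -1.96 ± 0.21, edgeR adjusted p = 1.2e-08). The difference ran from -2.40 without replicate 2 of control to -1.58 without replicate 1, the control libraries being uneven. BTBD19 fell by 1.39 in DKO-C1 and rose by 0.77 in control cells at levels of 1.23 to 5.02 CPM. For THBS1, CTGF and BTBD19 the 2 genotypes had opposite signs with ERCC scaling as well, while the reversed genes KIF20A, CDK6, KLF6, TIMP2 and MEPCE then had a negative response in both.

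**Figure D3:**
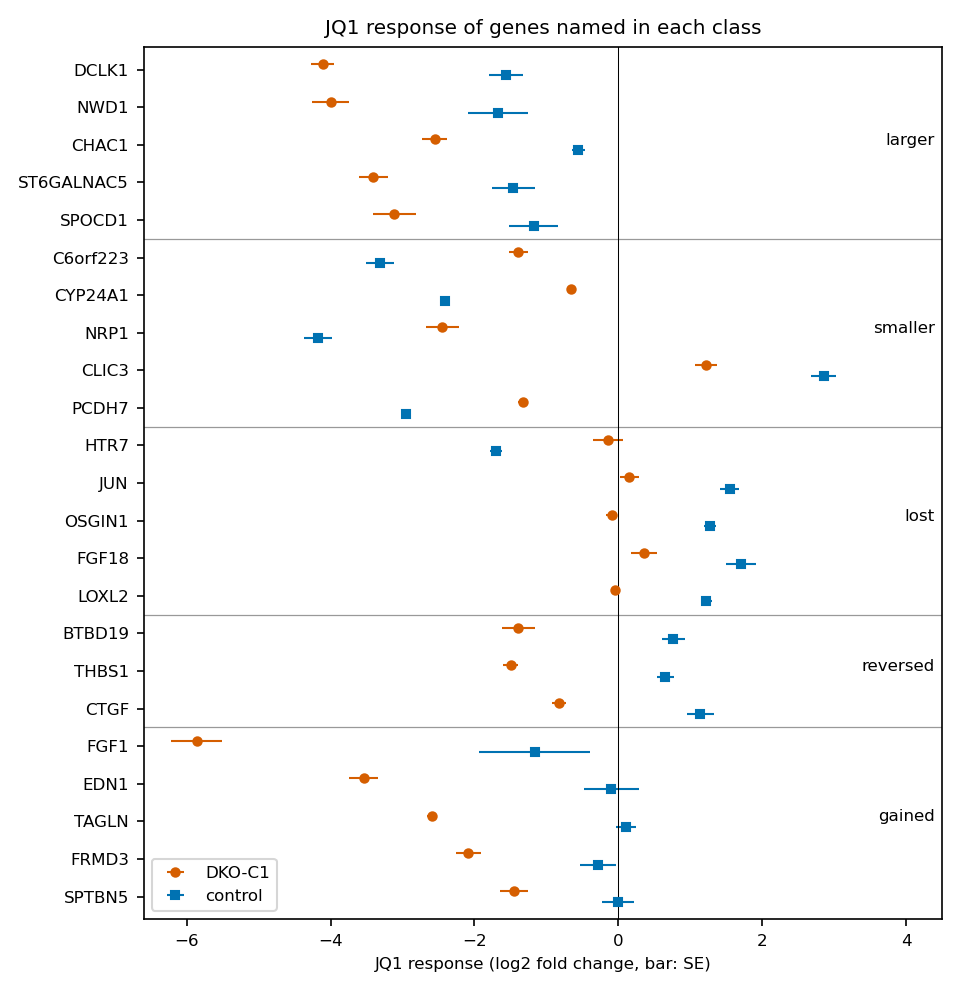
JQ1 response of genes with the largest differences in each class, as log2 fold change with its SE, in DKO-C1 (circles) and control cells (squares). Within a class the 2 symbols of a gene lie on the same side of zero for larger and smaller responses and on opposite sides for reversed ones.

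Of the YAP and TEAD target genes, 14 of 20 tested were called lower and 0 higher, against 4.7% of all tested genes called lower, with a median difference of -0.45. In DKO-C1 14 of the 20 fell and 1 rose, against 7 that fell and 6 that rose in control cells. The shares of all tested genes were 25.4% falling and 24.9% rising in DKO-C1, and 29.1% and 27% in control cells. CYR61, a matricellular relative of CTGF, had 350 and 388 CPM in DKO-C1 with JQ1 and 447, 405 and 417 CPM without, against 32.9, 29.6 and 35.8 CPM in control cells with JQ1 and 12, 28.6 and 20.2 CPM without. Its rise in control cells (0.70) had no counterpart in DKO-C1, where the response of -0.20 was not called. AXL, a receptor tyrosine kinase, fell by 0.92 in DKO-C1 and fell by 0.21 in control cells, and TEAD1, a DNA-binding partner of YAP, fell by 0.39 in DKO-C1 and not in control cells. Without replicate 1 of DKO-C1 with JQ1, 8 of the 20 were called lower, and with ERCC scaling 1 was.

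Genes of the extracellular matrix were called lower in 10 of 24 tested cases and higher in 0, against 4.7% of all tested genes called lower, with a median difference of -0.35. FN1, fibronectin, had 25.6 and 28.7 CPM in DKO-C1 with JQ1 and 65.1, 65.6 and 60.6 CPM without, against 8.02, 8.08 and 8.86 CPM in control cells with JQ1 and 10.5, 9.92 and 9.68 CPM without. JQ1 lowered it in both genotypes without overlap, by 1.23 in DKO-C1 and by 0.27 in control cells on the log2 scale (difference -0.96 ± 0.13, edgeR adjusted p = 1.34e-06). The metalloproteinase inhibitor TIMP2 fell by 0.23 in DKO-C1 and rose by 0.34 in control cells, and its relative TIMP3 rose by 0.92 in control cells alone. With ERCC scaling 0 of the 24 were called lower, 0.865 being the size of the negative difference of FN1 (adjusted p = 0.0543).

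Genes of mitosis moved down in DKO-C1 with JQ1, while in control cells their counts lay near the shares of all tested genes. In DKO-C1 20 of 24 tested genes fell and 0 rose, against 25.4% and 24.9% of all tested genes. In control cells 8 of the 24 fell and 7 rose, against 29.1% and 27% of all tested genes. The difference was called lower for 18 and higher for 0, against 4.7% of all tested genes called lower, with a median of -0.37, and the largest single value among the 24 was -0.09. KIF20A (ENSG00000112984, chr5:138178719-138187715, plus strand), a kinesin needed for cytokinesis, had 73.8 and 74.2 CPM in DKO-C1 with JQ1 and 139, 139 and 137 CPM without, against 154, 154 and 154 CPM in control cells with JQ1 and 141, 140 and 142 CPM without. Untreated cells of both genotypes were close, and only treated DKO-C1 stood apart. KIF20A fell by 0.90 in DKO-C1 and rose by 0.12 in control cells, and the difference was -1.03 ± 0.07 (edgeR adjusted p = 1.21e-13).

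AURKA, the mitotic kinase Aurora A, had 79.5 and 76 CPM in DKO-C1 with JQ1 and 134, 138 and 145 CPM without, against 87.9, 85.3 and 86.2 CPM in control cells with JQ1 and 104, 99.8 and 97 CPM without. It fell in both genotypes, by 0.84 in DKO-C1 and by 0.22 in control cells. TOP2A, topoisomerase II alpha, fell by 0.60 in DKO-C1 and was not called in control cells, while CDC20, an activator of the anaphase-promoting complex, fell by 0.15 in DKO-C1 and rose by 0.37 in control cells. The call count was 13 of 24 without replicate a of DKO-C1 with JQ1 and 1 of 24 with ERCC scaling, where the median response was -0.71 in DKO-C1 and -0.41 in control cells and 23 of the 24 differences kept their sign.

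Promoters were in the table for 15 of the 18 called mitosis genes, and 10 of the 15 (66.7%) held TTTGAA on either strand in the 250 bases before the start, against 8.19% of the promoters of all tested genes. Among all 19 mitosis genes with a promoter 11 held it. TTTGAA is the core of the cell cycle homology region, through which the DREAM complex and its activating counterparts act on genes of late cell cycle. The windows of the 3 called genes with the lowest p that hold it are shown with the motif in capitals on the strand read (TTCAAA where it lies on the other strand). They are CDC20 at chr1:43358731-43358980 (plus), KIF23, a kinesin of the central spindle, at chr15:69414099-69414348 (plus) and TOP2A at chr17:40417897-40418146 (minus), all from RefSeq for GRCh38.p14. The copy nearest the start lies 65 bases before it in CDC20, 55 in KIF23 and 151 in TOP2A.
CDC20: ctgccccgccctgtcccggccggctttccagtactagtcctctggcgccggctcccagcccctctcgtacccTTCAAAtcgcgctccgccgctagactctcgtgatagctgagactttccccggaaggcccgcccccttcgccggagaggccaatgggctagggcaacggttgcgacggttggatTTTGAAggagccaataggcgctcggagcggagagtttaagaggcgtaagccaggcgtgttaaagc
KIF23: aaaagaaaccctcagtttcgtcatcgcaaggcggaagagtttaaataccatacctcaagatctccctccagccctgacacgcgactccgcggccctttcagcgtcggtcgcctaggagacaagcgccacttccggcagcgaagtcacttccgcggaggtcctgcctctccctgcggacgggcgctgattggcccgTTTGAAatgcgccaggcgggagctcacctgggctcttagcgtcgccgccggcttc
TOP2A: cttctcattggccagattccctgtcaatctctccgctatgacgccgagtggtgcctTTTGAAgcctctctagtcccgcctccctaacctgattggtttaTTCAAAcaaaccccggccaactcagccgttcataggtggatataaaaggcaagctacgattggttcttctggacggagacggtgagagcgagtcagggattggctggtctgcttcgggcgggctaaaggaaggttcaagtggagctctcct

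**Figure D4:**
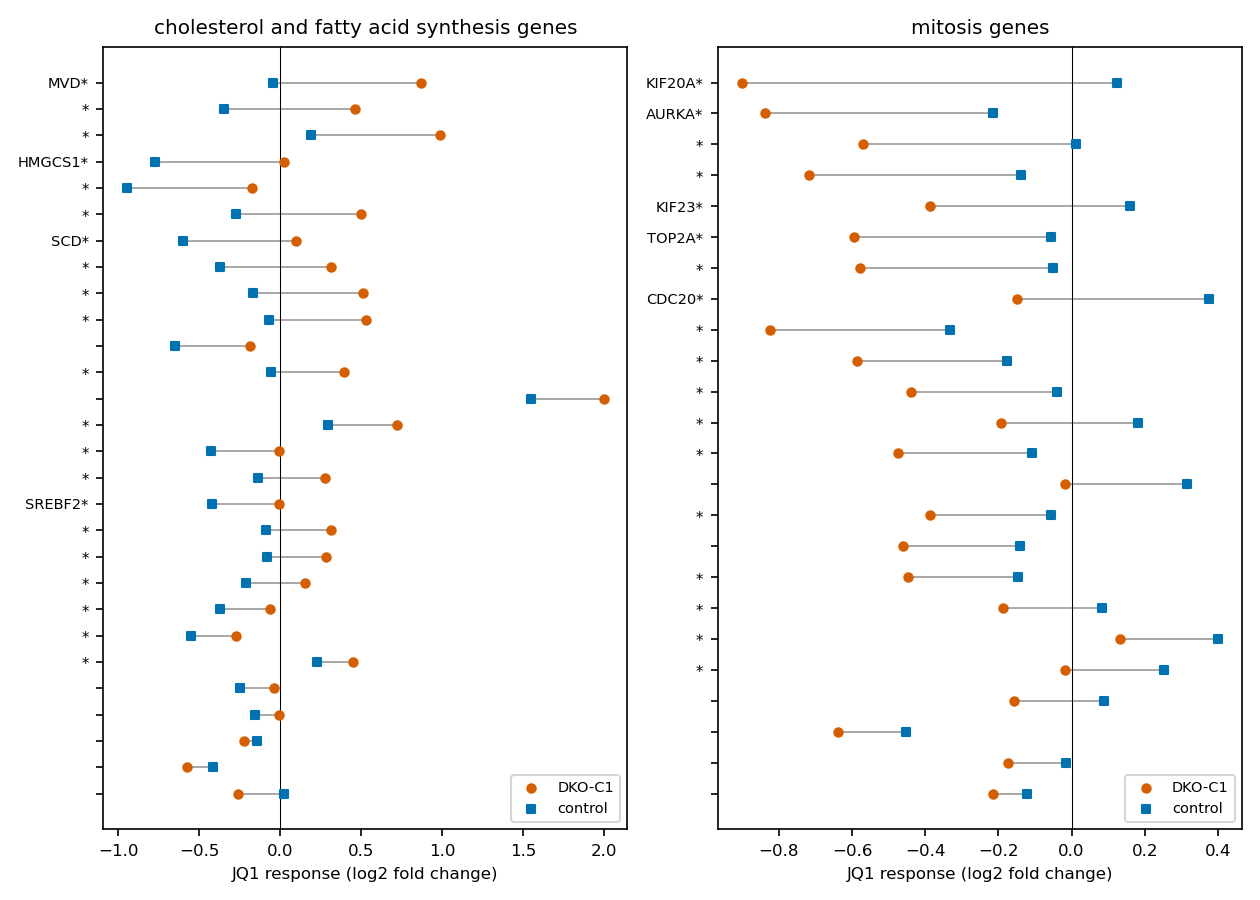
JQ1 response of tested genes of the cholesterol and fatty acid list (left) and of the mitosis list (right), as log2 fold change in DKO-C1 (circles) and control cells (squares), joined by a line and ordered by their difference; a star marks a called difference and genes described in the text carry their names. The circles lie mostly to the right of the squares for lipid genes and to the left for mitosis genes.

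Cholesterol and fatty acid synthesis went in the opposite direction. These genes are driven by the SREBP transcription factors, which are released when membrane sterols run low. Of 31 tested genes 18 rose and 4 fell with JQ1 in DKO-C1, against 5 that rose and 17 that fell in control cells. Of all tested genes 24.9% rose and 25.4% fell in DKO-C1, and 27% rose and 29.1% fell in control cells. The difference was called higher for 23 and lower for 1, against 3.9% and 4.7% of all tested genes, with a median of 0.43 beside 0.0261 over all tested genes. The median response was 0.28 in DKO-C1 and -0.21 in control cells.

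SCD, the desaturase that makes monounsaturated fatty acids, averaged 1502 CPM in DKO-C1 with JQ1 and 1406 CPM without, against 969.2 CPM in control cells with JQ1 and 1470.0 CPM without. JQ1 lowered it in control cells (-0.60), while its response in DKO-C1 (0.09) was not called.

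MVD, an enzyme of the mevalonate pathway, had 117 and 131 CPM in DKO-C1 with JQ1 and 63, 66.9 and 73.7 CPM without, against 75.6, 68.8 and 67.8 CPM in control cells with JQ1 and 70.9, 75.3 and 73.1 CPM without. Only treated DKO-C1 stood apart, with a response of 0.87 and a difference of 0.92 ± 0.09 (edgeR adjusted p = 2.39e-09). HMGCS1, a synthase early in the mevalonate pathway, fell by 0.77 in control cells alone. SREBF2, which encodes the sterol-sensing SREBP2 itself, fell by 0.42 in control cells alone. With ERCC scaling 7 of the 31 were called higher and the median difference was 0.52, the median response being 0.0177 in DKO-C1 and -0.58 in control cells.

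**Figure D5:**
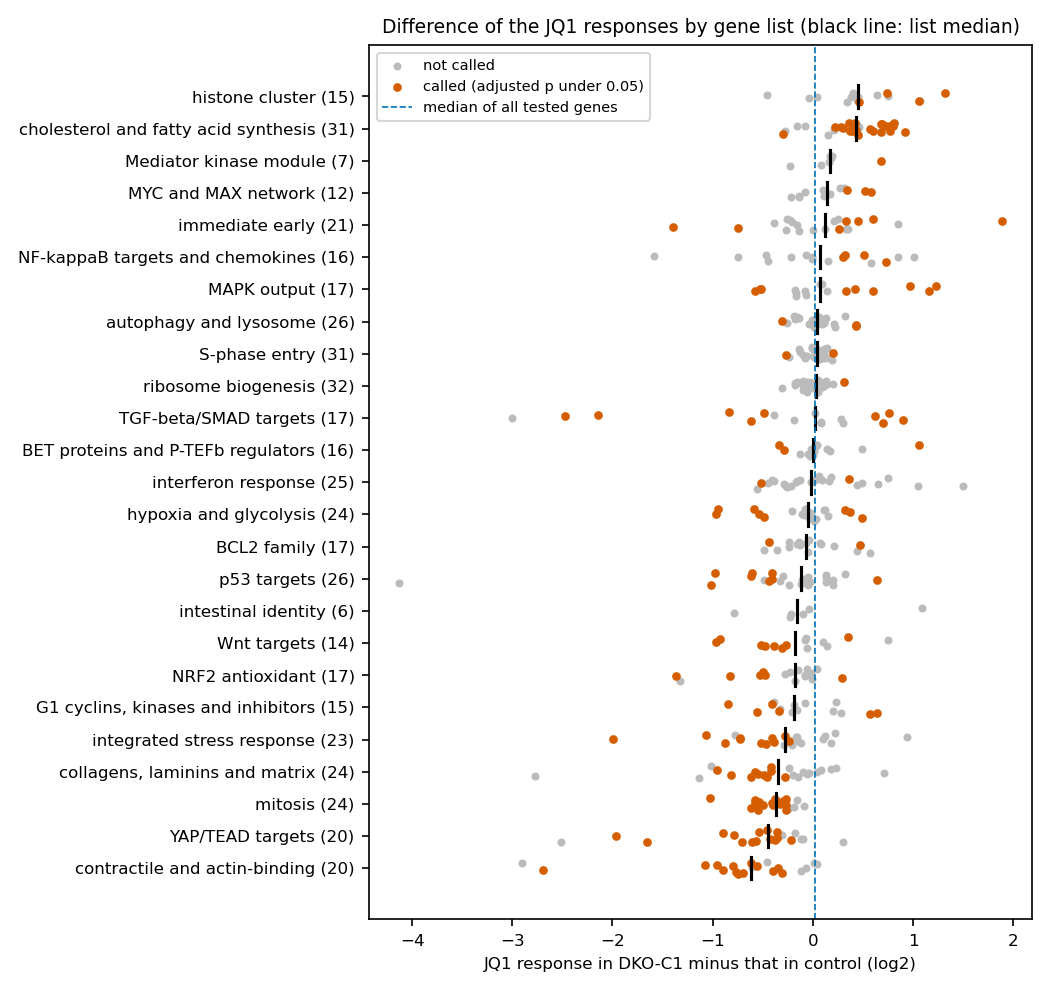
Difference of the JQ1 responses (DKO-C1 minus control, log2) for each tested gene of the 25 lists, ordered by list median from highest at the top. Numbers in brackets are tested genes, a black line marks the list median, and the dashed line marks the median of all tested genes, 0.0261.

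Lost responses included genes that JQ1 raised in control cells to the level at which DKO-C1 already stood. JUN (ENSG00000177606, chr1:58780788-58784327, minus strand), a subunit of the AP-1 transcription factor, had 38.2 and 38.9 CPM in DKO-C1 with JQ1 and 34.5, 32.4 and 37 CPM without, against 49.3, 42.4 and 46.5 CPM in control cells with JQ1 and 9.7, 21.3 and 16.3 CPM without. Untreated control cells lay below all other libraries. JUN rose by 1.55 in control cells and its response of 0.16 in DKO-C1 was not called (difference -1.40 ± 0.19, edgeR adjusted p = 1.41e-06). The untreated control libraries were uneven, and the difference ran from -1.67 without replicate 2 of control to -1.14 without replicate 1.

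OSGIN1, an oxidative stress response gene, had 28.5 and 31.2 CPM in DKO-C1 with JQ1 and 29.4, 32.4 and 33.7 CPM without, against 33.4, 29.4 and 31.4 CPM in control cells with JQ1 and 13.8, 12.7 and 12.5 CPM without. Here too only untreated control cells were low (difference -1.36 ± 0.11, edgeR adjusted p = 2.3e-11), but the second subline DKO-C2 without JQ1 held 14.7, 18.7 and 17.1 CPM, below every DKO-C1 library. LOXL2, an enzyme that crosslinks collagen, rose by 1.22 in control cells, and all DKO-C1 libraries stood well above them: 123 ± 1.92 CPM in DKO-C1 with JQ1 (SD, n = 2) and 127 ± 4.2 CPM without, against 36.3 ± 2.91 CPM in control cells with JQ1 and 15.6 ± 1.04 CPM without (SD, n = 3 each). FGF18, a growth factor, rose by 1.71 in control cells alone. HTR7, a serotonin receptor, fell by 1.70 in control cells, where it stood at 12 ± 1.27 CPM with JQ1 and 39.1 ± 2.63 CPM without (SD, n = 3 each), and at 1.67 to 2.63 CPM in all DKO-C1 libraries.

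The antioxidant genes controlled by NRF2 gave 5 lower and 1 higher call among 17, against 4.7% and 3.9% of all tested genes. NQO1, a quinone reductase, had 363 and 354 CPM in DKO-C1 with JQ1 and 327, 318 and 335 CPM without, against 685, 715 and 740 CPM in control cells with JQ1 and 362, 364 and 376 CPM without. Treated control cells stood far above all others: the rise was 0.14 in DKO-C1 and 0.96 in control cells (difference -0.82 ± 0.07, edgeR adjusted p = 1.14e-11). GCLM, a subunit of the enzyme that begins glutathione synthesis, and FTL, ferritin light chain, rose in control cells alone, by 0.42 and 0.44, and the pentose phosphate enzyme PGD rose more in DKO-C1 (0.30).

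Ligands of the EGF receptor were divided. AREG, amphiregulin, had 21.2 and 19.7 CPM in DKO-C1 with JQ1 and 19.5, 18.8 and 21.7 CPM without, against 51.6, 56.9 and 62.6 CPM in control cells with JQ1 and 114, 147 and 131 CPM without. JQ1 lowered it in control cells by 1.19 on the log2 scale, and in DKO-C1, where it was lowest, the groups overlapped (difference 1.23 ± 0.12, edgeR adjusted p = 2.35e-09). EREG, epiregulin, averaged 127 ± 8.85 CPM in DKO-C1 with JQ1 (SD, n = 2) and 203 ± 10.5 CPM without, against 278 ± 26.1 CPM in control cells with JQ1 and 992 ± 85.6 CPM without (SD, n = 3 each), and fell in both. On their list of MAPK output genes 6 of 17 were called higher and 3 lower, against 3.9% and 4.7% of all tested genes. The phosphatase DUSP6 was higher (0.42), while HBEGF and TGFA, further ligands of the EGF receptor, were lower (-0.58 and -0.52). HBEGF rose in both genotypes, by 0.55 in DKO-C1 and by 1.13 in control cells. TGFA rose by 0.52 in control cells and was not called in DKO-C1 (0.0077).

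Smaller responses were led by CYP24A1 (ENSG00000019186, chr20:54153449-54173973, minus strand), the hydroxylase that inactivates vitamin D. It had 196 and 202 CPM in DKO-C1 with JQ1 and 321, 309 and 315 CPM without, against 30.1, 27.6 and 28.6 CPM in control cells with JQ1 and 136, 167 and 157 CPM without. JQ1 lowered it in both genotypes, and the treated DKO-C1 libraries remained above untreated control cells. It fell by 0.66 in DKO-C1 and fell by 2.41 in control cells, a difference of 1.75 ± 0.08 (edgeR adjusted p = 1.28e-17), the lowest p of all tested genes. PCDH7, a protocadherin, had 26.8 and 27.2 CPM in DKO-C1 with JQ1 and 69.8, 64.9 and 68.4 CPM without, against 15.3, 17.6 and 18.7 CPM in control cells with JQ1 and 136, 132 and 133 CPM without.

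PCDH7 thus fell in both, by 1.32 in DKO-C1 and by 2.95 in control cells, from unequal starting levels. C6orf223, with no assigned role here, fell by 1.39 in DKO-C1 and by 3.31 in control cells, with 77 and 73 counts in DKO-C1 with JQ1 and 211, 211 and 185 without, against 8, 8 and 14 counts in control cells with JQ1 and 112, 90 and 119 without. It overlaps an exon on the opposite strand and lies within the span of the antisense RNA AL109615.3 (chr6:43995723-44074652, minus strand). That RNA averaged 17.27 CPM in DKO-C1 with JQ1 and 3.474 CPM without, against 2.034 and 2.552 CPM in control cells. The share of its reads in the counts of C6orf223 was not tested, so these counts are uncertain. NRP1, a co-receptor for semaphorins and VEGF, gave a difference of 1.73, but the call was lost without replicate 1 of DKO-C1 with JQ1 (edgeR adjusted p = 0.167), and treated libraries held only 6 to 20 counts. CLIC3 rose in both genotypes, to 11.5 ± 0.0829 CPM in DKO-C1 (SD, n = 2), against 4.92 ± 0.338 CPM without JQ1, and to 12.2 ± 1.54 CPM in control cells, against 1.68 ± 0.0975 CPM without (SD, n = 3 each). NF-kappaB targets and chemokines were called higher in 4 of 16 cases and lower in 0, against 3.9% and 4.7% of all tested genes. Among those called were TNFAIP2 (0.73), which fell less in DKO-C1, and the chemokine CXCL16 (0.51), which fell in control cells alone.

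Larger responses included the stress gene CHAC1 (ENSG00000128965, chr15:40952962-40956519, plus strand), which encodes a glutathione-degrading enzyme and is induced by ATF4. It had 1.59 and 1.68 CPM in DKO-C1 with JQ1 and 9.74, 9.54 and 9.62 CPM without, against 15.9, 17 and 17.4 CPM in control cells with JQ1 and 22, 26.7 and 25.4 CPM without. No 2 of the 4 groups overlapped. It fell by 2.55 in DKO-C1 and fell by 0.56 in control cells (difference -1.999 ± 0.21, edgeR adjusted p = 5.1e-09).

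The integrated stress response as a whole, the ATF4 programme of amino acid supply and stress, fell with JQ1 in both genotypes, with 19 of 23 tested genes down in DKO-C1 and 19 down in control cells. Of all tested genes 25.4% fell in DKO-C1 and 29.1% in control cells. The difference was called lower for 11 and higher for 0, against 4.7% of all tested genes called lower, with a median of -0.28. SLC7A11, the cystine importer, fell by 2.20 in DKO-C1 and by 1.14 in control cells, and STC2, a secreted stanniocalcin, fell by 2.28 in DKO-C1 and by 1.40 in control cells. STC2 had 37.4 and 34.7 CPM in DKO-C1 with JQ1 and 179, 169 and 176 CPM without, against 61.5, 61.5 and 67.7 CPM in control cells with JQ1 and 149, 182 and 173 CPM without, so that the untreated groups overlapped and the treated ones did not. PCK2, a mitochondrial carboxykinase, fell by 0.53 in DKO-C1 and rose by 0.20 in control cells. With ERCC scaling 2 of the 23 were called lower, and all 23 differences kept their sign.

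DCLK1, a doublecortin-like kinase, had 1.59 and 1.68 CPM in DKO-C1 with JQ1 and 29.4, 28.6 and 27.1 CPM without, against 0.973, 0.854 and 0.909 CPM in control cells with JQ1 and 1.73, 3.73 and 2.73 CPM without. With JQ1 both genotypes stood at 0.854 to 1.68 CPM, so the larger fold (-4.11 in DKO-C1, -1.57 in control cells) went with the higher start. ST6GALNAC5, a sialyltransferase, and NWD1 and SPOCD1 followed the same course, with untreated DKO-C1 at 12.8 ± 0.499, 7.49 ± 0.521 and 5.47 ± 0.845 CPM (SD, n = 3). DCLK1 and these genes reached the mean of 5 CPM needed for naming only in untreated DKO-C1. Their shared high start therefore follows from the naming rule and is not a result. The calls of NWD1 and SPOCD1 each failed without single libraries, at adjusted p of 0.112 without replicate 3 of control with JQ1 for NWD1 and 0.139 without replicate 1 of DKO-C1 with JQ1 for SPOCD1.

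Histone genes rose with JQ1 in both genotypes. Of 15 tested histone genes 14 rose and 0 fell in DKO-C1, against 12 that rose and 0 that fell in control cells. Of all tested genes 24.9% rose in DKO-C1 and 27% in control cells. The difference was called higher for 4 and lower for 0, against 3.9% and 4.7% of all tested genes. HIST1H2AC, a core histone gene, had 19 and 16.4 CPM in DKO-C1 with JQ1 and 1.38, 1.3 and 1.72 CPM without, against 16.8, 15.7 and 16.9 CPM in control cells with JQ1 and 4.14, 2.85 and 3.21 CPM without. Treated libraries of both genotypes met at one level from unequal starts, with rises of 3.59 in DKO-C1 and 2.27 in control cells (difference 1.32 ± 0.22, edgeR adjusted p = 4.11e-05). The linker histone H1F0 rose by 2.23 in DKO-C1 and by 1.77 in control cells.

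Immediate early genes, which serum and stress induce quickly, were called higher in 5 of 21 cases and lower in 2, against 3.9% and 4.7% of all tested genes. EGR1 (ENSG00000120738), a zinc finger transcription factor named after its values were seen, had 47.1 and 97.9 CPM in DKO-C1 with JQ1 and 7.94, 8.97 and 8.7 CPM without, against 66.6, 89.4 and 75.2 CPM in control cells with JQ1 and 26.1, 40.6 and 34.3 CPM without. The 2 treated DKO-C1 libraries differed widely but both lay far above the untreated ones (rise of 3.08 in DKO-C1 and 1.20 in control cells, difference 1.89 ± 0.30, edgeR adjusted p = 1.8e-05). KLF6, a zinc finger factor, fell by 0.38 in DKO-C1 and rose by 0.37 in control cells. The 250 bases before the start of EGR1, at chr5:138465229-138465478 on the plus strand (RefSeq, GRCh38.p14), held CArG boxes starting 105 and 83 bases before the start, shown in capitals beside those of the contractile genes.
EGR1: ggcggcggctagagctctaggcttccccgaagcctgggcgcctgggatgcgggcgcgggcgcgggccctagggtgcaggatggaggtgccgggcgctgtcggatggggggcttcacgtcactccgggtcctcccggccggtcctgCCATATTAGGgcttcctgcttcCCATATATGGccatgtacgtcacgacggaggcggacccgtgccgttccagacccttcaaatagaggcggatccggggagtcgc

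Calls among cell cycle brakes and p53 targets went both ways. CDKN1A, which encodes the cyclin-dependent kinase inhibitor p21, had 269 and 267 CPM in DKO-C1 with JQ1 and 99.7, 102 and 110 CPM without, against 206, 188 and 196 CPM in control cells with JQ1 and 128, 112 and 116 CPM without. It rose more in DKO-C1 (1.37) than in control cells (0.73), with a difference of 0.64 ± 0.09 (edgeR adjusted p = 1.47e-06). It was the only p53 target of 26 called higher, while 7 were called lower, among them the ubiquitin ligase MDM2 (-0.43), the polo-like kinase PLK2 (-1.02) and the secreted factor GDF15 (-0.97). Of 15 tested G1 regulators 2 were called higher and 4 lower. The shares over all tested genes, beside both lists, were 3.9% higher and 4.7% lower. CDK6 fell by 0.40 in DKO-C1 and rose by 0.16 in control cells, and CDKN2C, a kinase inhibitor, rose by 0.68 in control cells alone.

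Calls among signalling targets went both ways too, beside 3.9% of all tested genes called higher and 4.7% called lower. Of 14 tested Wnt targets 7 were called lower and 1 higher with edgeR, against 5 lower and 3 higher with DESeq2 and 6 lower and 1 higher with limma voom. AXIN2, a negative regulator of beta-catenin, fell by 0.59 in DKO-C1 and rose by 0.38 in control cells. Among 17 targets of TGF-beta and SMAD 4 were called higher and 5 lower, against the same 3.9% and 4.7% of all tested genes. ID3, an inhibitor of helix-loop-helix factors, had 176 and 190 CPM in DKO-C1 with JQ1 and 43.2, 49 and 47.6 CPM without, against 104, 87.2 and 95.2 CPM in control cells with JQ1 and 42.8, 38.3 and 42.9 CPM without. Untreated levels were close, and JQ1 raised it in both, more so in DKO-C1 (difference 0.77 ± 0.11, edgeR adjusted p = 4.21e-06), as it did ID1 (0.70), while ID2 rose less (-0.48). SLC2A1, the glucose transporter GLUT1, fell by 0.34 in DKO-C1 and rose by 0.61 in control cells, and NDRG1, a hypoxia-induced gene, rose less in DKO-C1 (-0.59). Their hypoxia and glycolysis list of 24 tested genes had 3 called higher and 5 lower, against 3.9% and 4.7% of all tested genes.

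Other lists differed little between the genotypes. Ribosome biogenesis genes fell with JQ1 in both, 21 of 32 in DKO-C1 and 25 of 32 in control cells. Of all tested genes 25.4% fell in DKO-C1 and 29.1% in control cells. In this list 1 of 32 (3.12%) was called for a difference, RRP9, and the median difference was 0.0284. Of 31 S-phase genes 2 (6.45%) were called, E2F8 and MCM3, and of 25 interferon response genes 2 (8%) were, HERC5 and DDX58. The shares called for a difference lie below or near the 8.59% of all tested genes, and each of these 5 calls was lost in at least 1 fit without a single library. The BCL2 family gave 2 calls of 17, BCL2L11 (0.47), a killer protein that rose in both genotypes, and PMAIP1 (-0.43). Autophagy and lysosome genes gave 3 of 26, with GABARAPL1 higher (0.43) and the cargo receptor SQSTM1 lower (-0.31), and the 6 tested intestinal genes gave 0 with edgeR, DESeq2 and limma voom and 1 at an unadjusted p under 0.05.

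In the lists of contractile, YAP and TEAD, matrix, mitosis and integrated stress genes, 0 members were called higher by edgeR, by DESeq2 or by limma voom, and 0 were higher at an unadjusted p under 0.05. The same count of lower members was 0 for the histone and the MYC and MAX lists, while 2 NF-kappaB targets and 1 ribosome gene were lower at an unadjusted p under 0.05.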

How the data were processed

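RNA from HCT116 cells and knockout sublines was sequenced as pairs of 100 bases, per the labels' protocols. STAR 2.5.2, featureCounts, Subread 1.6.3 and the build hg38 are named in the submitters' processing notes. The deposited table holds whole-number counts for each gene, not normalized by the authors. Nothing in the sources used here states the strand setting or the library kit, so reads of a gene and its antisense partner cannot be told apart. Of 68 named genes, 22 overlap an exon on the opposite strand only, among them TAGLN, THBS1, CTGF, KIF20A, NQO1 and HEXIM1. A further 7 share an exon on their own strand or at least 10% of their 50-base words with other genes in GENCODE 29 (ACTN1, AXIN2, LOXL2, OSGIN1, RNF43, SLC2A1 and TIMP2), and their counts are uncertain.

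The table held 58039 genes and 92 spike-in transcripts, and 0 columns belonged to no sample. Columns were matched to samples by name. 1 of the 2 DKO-C1 columns with JQ1 carries a number that no sample title has and is called replicate a, and the 3 DKO-C2 columns were matched to their group by elimination.

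All 26 libraries in 9 groups were fitted with edgeR 4.0.16 (R 4.3.3) after filterByExpr (minimum count 10, minimum total 15) with TMM factors, and the quasi-likelihood test was two-sided. An SE is the size of the log2 fold change divided by the square root of its F statistic. CPM use TMM-scaled library sizes. The fit was tested on simulated data. Gene counts of the 11 libraries ran from 18291536 to 18958445, so low genes rest on few counts.

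The genes and the 25 lists (545 entries, 496 tested) were chosen with earlier results of these data known. The rule names MYC, HEXIM1, CDK8 and CDK19, the 5 largest differences per class with at least 5 CPM in 1 group and JQ1 libraries of the 2 genotypes on separate sides, and 2 called members per list. Other list members are examples chosen after their values were seen. A few of the genes chosen this way are not reported here. No set test was made. Motifs were searched on both strands of the 250 bases before the start, and bases after it were not searched. The cell cycle homology, TEAD, amino acid response and CArG motifs were added after the data were seen, and none of them contains another. Gene positions are from GENCODE 29 and promoters from RefSeq, present for 48 of the 68 named genes. For 77.2% of the 10859 promoters of tested genes the start matched a GENCODE transcript. Alternatives were DESeq2 1.42.0 and its size factors, limma 3.58.1 (voom), ERCC factors, other filters, the 11 libraries alone, a replicate block and leaving out each library.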

Additional observations from a re-analysis of the deposited data

Results flagged for a closer look

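For 65 of the 68 named genes the JQ1 response in DKO-C1 and that in control cells differed by the test of the difference itself (edgeR's quasi-likelihood test with Benjamini-Hochberg adjustment under 0.05), and those reported are listed with that difference, DKO-C1 minus control, on the log2 scale. Apart from MYC, HEXIM1, CDK8 and CDK19, named genes were taken only from genes that had passed this test. The count of 65 therefore follows from the naming rule and is not a result. Among genes with responses called in DKO-C1 and not in control cells, the response was higher in DKO-C1 for HERC5 0.36, and lower for FGF1 -4.70, EDN1 -3.44, TAGLN -2.69, FRMD3 -1.80, SPTBN5 -1.45, ACTN1 -0.80 and PMAIP1 -0.43. Among genes with responses called with opposite signs, the response was higher in DKO-C1 for TGIF1 0.63, and lower for BTBD19 -2.16, THBS1 -2.15, CTGF -1.96, KIF20A -1.03, AXIN2 -0.97, SLC2A1 -0.95, KLF6 -0.75, TIMP2 -0.57, CDK6 -0.56 and MEPCE -0.34. Among genes with responses called in control cells and not in DKO-C1, the response was higher in DKO-C1 for HTR7 1.56, AREG 1.23, SCD 0.70, MED12L 0.68, MNT 0.53, CXCL16 0.51 and RRP9 0.31, and lower for JUN -1.40, OSGIN1 -1.36, FGF18 -1.35, LOXL2 -1.26 and DDX58 -0.52. Among genes with responses of the same sign and smaller in DKO-C1, the response was higher in DKO-C1 for C6orf223 1.93, CYP24A1 1.75, NRP1 1.73, PCDH7 1.63, EREG 1.16, TNFAIP2 0.73, MYC 0.58 and MCM3 0.21, and lower for CLIC3 -1.63, NQO1 -0.82, NDRG1 -0.59 and SQSTM1 -0.31. Among genes with responses of the same sign and larger in DKO-C1, the response was higher in DKO-C1 for HIST1H2AC 1.32, SERPINI1 1.06, CDKN1A 0.64, BCL2L11 0.47, H1F0 0.46 and GABARAPL1 0.43, and lower for DCLK1 -2.54, NWD1 -2.32, CHAC1 -1.999, ST6GALNAC5 -1.95, SPOCD1 -1.94, PLK2 -1.02, GDF15 -0.97, FN1 -0.96, STC2 -0.87, AXL -0.70, AURKA -0.62, RNF43 -0.39 and E2F8 -0.27. HEXIM1, CDK8 and CDK19 were named by rule and did not pass. Of the 65, 30 were not called when libraries were scaled by ERCC counts. The sign held for all 65, which a small shift of like size in most genes could hardly change. No group held more than 3 libraries, so single libraries were not tested as outliers.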

How the results depend on the processing

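All 68 named genes kept the sign of their difference in all alternatives in which they were tested, except HEXIM1, which was 0.0468 with ERCC scaling against -0.05 with TMM and was called in neither. Both the sign and the side of the threshold were kept throughout by 34 of the 68. ERCC scaling changed the counts most: 142 differences were called (83 higher, 59 lower), with 21 larger, 29 smaller, 39 lost, 11 reversed and 42 gained responses, 923 rises in DKO-C1, and 801 rises and 7666 falls in control cells. The ERCC share of counts was higher in DKO-C1 than in control libraries, and the median difference over all genes moved by 0.0979; the cause was not tested. In a fit of the 11 libraries alone, 1698 differences were called, 457 higher and 1241 lower, against 670 and 808 from all 26, and the median difference was -0.0325. Leaving out single libraries (lowest number of differences without replicate 1 of DKO-C1 with JQ1) gave 921 to 1446 called differences (337 to 645 higher, 584 to 801 lower), 170 to 273 larger, 164 to 329 smaller, 280 to 356 lost, 103 to 149 reversed and 204 to 363 gained responses. It gave 7189 to 8749 calls in DKO-C1 (3691 to 4333 rises, 3447 to 4416 falls) and 8900 to 9652 in control cells (4268 to 4830 rises, 4582 to 4994 falls). With replicate 1 or replicate a of DKO-C1 with JQ1 left out, the other library stands alone in its group and is assumed to vary like the other groups. Replicate numbers did not pair the samples: deviations of same-numbered libraries correlated between -0.059 and 0.054, and with a replicate block on the 11 libraries 1362 differences were called, 349 higher and 1013 lower. DESeq2, its size factors, limma voom and the 2 other filters left the counts of called differences, of classes and of responses in each genotype within 1.5 times the main ones, as well as the counts of the 6 lists with the most calls in 1 direction. Small list counts moved more. With DESeq2 higher calls were 3 against 1 among Wnt targets, 2 against 1 on the BET and P-TEFb list and 1 against 2 among G1 regulators. Lower calls of S-phase genes were 0 against 1. For genes with few counts such as FGF1, small differences were not detectable at this depth.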

Other observations

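Few of the called genes were noncoding RNAs. Of 1918 tested long noncoding RNAs 49 (2.55%) had a called difference, 33 higher and 16 lower, against 1401 of 13198 protein-coding genes (10.6%), 624 higher and 777 lower, and 21 of 1831 pseudogenes (1.15%). The difference between these shares was not tested. The antisense RNA AL109615.3 overlaps exons of the opposite strand and cannot be told apart from them, and its span holds C6orf223. It had the largest difference among called long noncoding RNAs with at least 5 CPM in a group, 2.64 ± 0.24 (edgeR adjusted p = 1.53e-10). LUCAT1, a stress-linked long noncoding RNA, averaged 1.935 CPM in DKO-C1 with JQ1 and 5.361 CPM without, against 0.6837 CPM in control cells with JQ1 and 0.5571 CPM without, a difference of -1.77 ± 0.45 (edgeR adjusted p = 0.00882). CASC19 averaged 0.2448 CPM in DKO-C1 with JQ1 and 10.76 CPM without, against 1.292 CPM in control cells with JQ1 and 19.72 CPM without. It fell in both genotypes, by 5.42 in DKO-C1 and by 3.92 in control cells on the log2 scale. DLGAP1-AS2 fell by 1.04 in control cells alone (difference 0.99 ± 0.16, adjusted p = 3.99e-05).

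Of 8 epithelial markers 1 was called for a difference, against 8.59% of all tested genes. It was CDH1, which encodes E-cadherin (-0.27 ± 0.07, edgeR adjusted p = 0.00492), and the median difference over the 8 was -0.04. KRT8, a keratin that shares 10.6% of its 50-base words with other genes, averaged 4089 CPM in DKO-C1 with JQ1 and 3524 CPM without, against 2784 CPM in control cells with JQ1 and 2224 CPM without. EPCAM averaged 281 CPM in DKO-C1 with JQ1 and 347 CPM without, against 252 CPM in control cells with JQ1 and 338 CPM without. SNAI2, a transcription factor that represses E-cadherin, had 3.45 and 2.87 CPM in DKO-C1 with JQ1 and 3.65, 3.81 and 3.81 CPM without, against 1.03, 1.14 and 0.909 CPM in control cells with JQ1 and 0.21, 0.274 and 0.16 CPM without. It rose in control cells by 2.22 on the log2 scale and its response in DKO-C1 was not called (difference -2.47 ± 0.40, edgeR adjusted p = 2.56e-05). ALDOA, a glycolytic aldolase that shares 37.4% of its 50-base words with other genes, stood at 49.9 and 53.9 CPM in DKO-C1 with JQ1 and 26.7, 27.2 and 29.8 CPM without, against 1400, 1280 and 1350 CPM in control cells with JQ1 and 953, 1050 and 1030 CPM without. NUSAP1, a spindle protein that shares 57.5% of its words, averaged 28.15 CPM in DKO-C1 with JQ1 and 32.08 CPM without, against 218.2 CPM in control cells with JQ1 and 205.8 CPM without. Whether the libraries of the 2 genotypes were counted alike was not tested, so these levels are uncertain. ALDOA rose in both genotypes, by 0.90 in DKO-C1 and by 0.41 in control cells.

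Motif shares in promoters are given as a description. The E-box CACGTG was in 6.12% to 9.09% of the promoters of the 5 response classes, against 8.89% of those of all tested genes. The AP-1 site TGANTCA was in 1.82% to 6.47% (4.04% of all), the CRE TGACGTCA in 1.44% to 4.93% (2.78% of all), the TATA box TATAAA in 5.82% to 10.3% (5.28% of all) and the NF-kappaB site in 0% to 0.364% (0.184% of all). TTTGAA was in 7.63% to 16.6% of the promoters of the 5 classes (8.19% of all). The CArG box was in 1.35% to 2.67% (1.01% of all) and GGAATG in 5.82% to 10.0% (9.35% of all). The amino acid response core TGATGNAA was in 1 of 9 promoters of called integrated stress genes, against 1.35% of all.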
